A study of Mus musculus with 6 samples.

Results

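The genes described here encode 43 glycoproteins of the extracellular matrix, taken as a list of gene symbols and sorted into 14 genes of the basement membrane, 13 of elastic fibres and microfibrils, and 16 matricellular and adhesive glycoproteins. Gene expression was measured in NIH/3T3 cells, an immortalized mouse fibroblast line. The cells stably expressed an HA-tagged copy of RPB1, the polymerase II subunit that holds the catalytic site, in its wild type form (3 arrays) or as 8KR, in which arginine replaces each lysine at position 7 of the repeats of the C-terminal domain (3 arrays). Both groups grew in DMEM with bovine calf serum at 10% and with α-amanitin, which blocks polymerase II, at 2 µg/ml, so both carry a transgene and both met the drug. The question asked of the genes was whether they differ between cells whose RPB1 can be acetylated at these lysines and cells whose RPB1 cannot. Whether the 3 biological replicates of a group came from separate stably transfected populations is not stated, so the p-values measure the spread between these arrays.

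Of the 43 genes, 40 had a probe set with a single gene symbol, out of 19938 such genes on the array, and each of the 40 had 1 probe set. Fbn1, Efemp2 and Spp1 were not analysed here. Lama2, the laminin α2 chain, lay below the filter of the methods, which asks for a mean log2 intensity above 3.0 in at least 1 group. Its means were 2.87 in wild type and 2.95 in 8KR cells. The remaining 39 were tested among 17145 genes, 13 of them in the basement membrane group, 11 in the elastic fibre group and 15 in the matricellular group.

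A basement membrane is a thin sheet that laminins, trimers of an α, a β and a γ chain, build together with nidogens, which bridge laminin to collagen IV, and with the heparan sulfate proteoglycans perlecan and agrin. Elastic fibres hold a core of elastin on a scaffold of fibrillin microfibrils, and fibulins, emilins and microfibril-associated proteins take part in their assembly. Matricellular proteins such as thrombospondins, periostin, tenascins and SPARC are secreted into the matrix but act mainly on cells and on other matrix proteins. Fibroblasts make many of these proteins and use fibronectin as an early scaffold.

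In 8KR cells 7 of the 39 genes fell and 2 rose, whereas 30 did not pass the test. Ecm1 fell the most and Postn rose the most, each by close to 4.0-fold. A gene was called at an adjusted p under 0.05 from limma, with Benjamini-Hochberg adjustment over all 28543 probe sets tested. The called share was 23.1%, and 5.39% of all tested genes were called, with 2.33% higher and 3.06% lower in 8KR cells. The list was chosen with earlier results of these data known, so its share is a description and not a test. The median log2 difference was 0.02 over the 39 genes and 0.01 over all tested genes, so the list as a whole was not displaced to either side. Sizes were larger than usual, with a median absolute log2 difference of 0.22 for the list and 0.14 for all genes. The probe sets of the list were also brighter, at a median of the mean log2 intensity of 5.98 against 5.40, and the part of brightness in the called share was not tested. In 10 genes all 8KR arrays lay above all wild type arrays and in 11 they lay below, together 53.8% of the list against 29.7% of all tested genes. At least 1 log2 unit separated the group means in 4 of the 39 genes, against 1.22% of all tested genes. Without adjustment, 7 genes had a higher and 10 a lower mean in 8KR cells at a p under 0.05 from limma, 17 of 39 in all, beside 21.8% of all tested genes. Leaving out any single array gave 2 rises and 4 or 5 falls, all among the 9 genes called with all arrays.

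**Figure D1:**
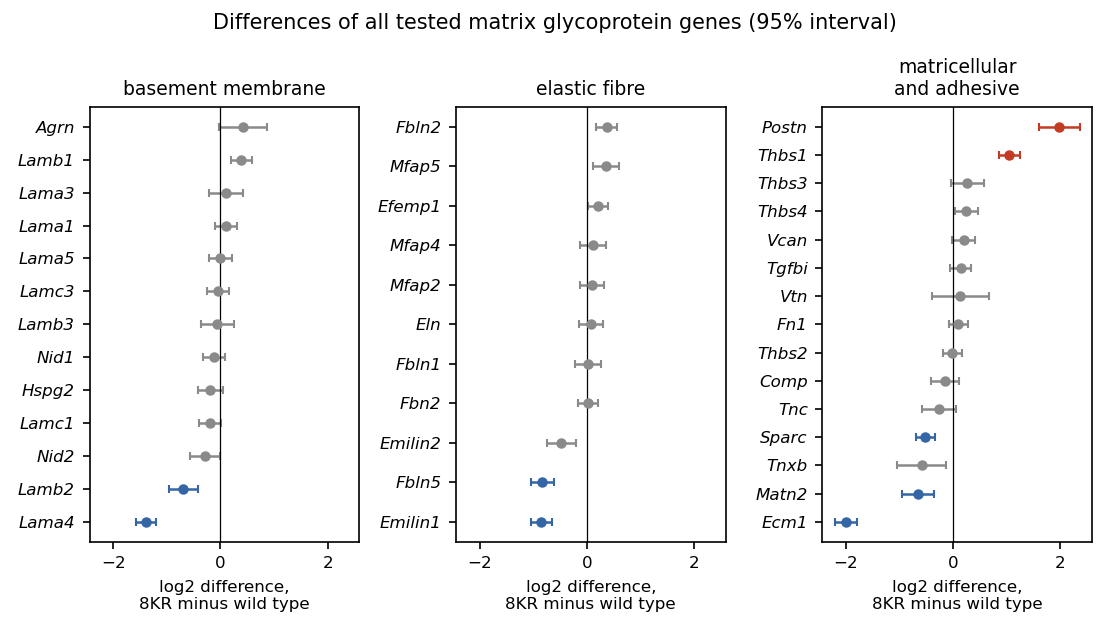
Log2 difference between 8KR and wild type cells (horizontal axis, 8KR minus wild type) of the 39 tested genes in their 3 groups, with the 95% interval from limma as a bar. Blue points fell, red points rose and grey points did not pass at an adjusted p under 0.05, and the called genes range from Ecm1 at -2.00 to Postn at 1.98.

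The genes with the largest fall and the largest rise are shown here by the sequence before their transcription start, because they mark both ends of the range of differences. RefSeq windows of assembly GRCm38.p6 matched 29 of the 43 genes and 6 of the 9 called genes, and Lama4, Thbs1 and Matn2 were not among them. Each run gives the 250 bases before an annotated start, 5′ to 3′ on the strand of the gene. Capitals mark matches, on either strand, to any of 5 motifs, which do not overlap in the runs shown. The core promoter motif searched for was TATAAA, known as the TATA box. The motif for binding by Sp1 and related proteins was GGGCGG, and that for nuclear factor Y was CCAAT. The motif searched for on behalf of the Fos and Jun family was TGANTCA, where N stands for any base. The last motif, for the TEAD family of factors, was GGAATG. The window of Ecm1 lies at chr3:95739570-95739819 on the minus strand. Of the annotated windows of Postn, that with a motif match is shown, at chr3:54360857-54361106 on the plus strand.
Ecm1: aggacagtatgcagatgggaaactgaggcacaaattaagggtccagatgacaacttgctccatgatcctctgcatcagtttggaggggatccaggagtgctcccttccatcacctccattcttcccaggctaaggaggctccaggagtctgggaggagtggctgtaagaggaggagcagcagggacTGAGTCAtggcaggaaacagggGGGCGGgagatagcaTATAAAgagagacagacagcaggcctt
Postn: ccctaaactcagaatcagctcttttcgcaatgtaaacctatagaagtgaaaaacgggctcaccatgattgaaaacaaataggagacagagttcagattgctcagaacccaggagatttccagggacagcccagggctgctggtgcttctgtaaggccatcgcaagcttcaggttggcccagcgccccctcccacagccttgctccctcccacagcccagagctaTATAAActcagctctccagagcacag

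In both windows shown a TATAAA match begins shortly before the start, 27 bases before it in Ecm1 and 26 in Postn. Of the 32851 windows in the table, 12.4% hold that motif, counted at any place in the window and on either strand. The Ecm1 window also holds a GGGCGG match 42 bases and a TGANTCA match 64 bases before the start, letters found in 32.7% and 6.75% of all windows. The annotated window of Postn that is not shown held none of the motifs. Among the other called genes, the windows of Lamb2, Emilin1 and Sparc held none, and of the windows of Fbln5 1 held GGGCGG at 2 places and CCAAT at 1. The shares for CCAAT and GGAATG over all windows were 33.8% and 12.6%. A match is a stretch of letters and does not show that a factor binds there.

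Among the basement membrane genes, 2 of 13 fell, none rose and 11 did not pass. Lama4 encodes the laminin α4 chain, which is made by mesenchymal and vessel cells. Its log2 intensity was 5.62, 5.67 and 5.59 in wild type and 4.17, 4.23 and 4.33 in 8KR cells. The groups did not overlap, and every 8KR array lay more than 1 log2 unit below every wild type array. The mean fell from 5.63 ± 0.04 to 4.24 ± 0.08 (SD, n = 3 each), or 2.61-fold (log2 difference -1.39, SE 0.08, limma adjusted p = 0.00156). Lamb2 encodes the laminin β2 chain, a β chain of specialised basement membranes. It gave 7.33, 7.22 and 7.36 in wild type and 6.45, 6.58 and 6.81 in 8KR cells, again with no overlap but with a wider spread among the 8KR arrays. The mean fell from 7.30 ± 0.07 to 6.61 ± 0.18 (SD, n = 3 each; log2 difference -0.69, SE 0.11, limma adjusted p = 0.0312). This call was lost when any array except 8KR replicate 3 was left out, with adjusted p-values from limma between 0.0426 and 0.104 over the 6 fits and differences between -0.79 and -0.61.

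The other laminin chains on the arrays were not called. Lamb1, the widely expressed β1 chain, had means of 7.59 in wild type and 7.98 in 8KR cells, with all 8KR arrays above the wild type arrays (log2 difference 0.39, 95% interval 0.19 to 0.59, adjusted p = 0.0582 from limma). It passed in 4 of the alternatives, among them quantile normalization with an adjusted p of 0.0464. On the same arrays Lamb2 minus Lamb1 was 1.08 log2 units lower in 8KR cells, and relative to the wild type mean it ranged from -1.25 to -0.83 in 8KR cells and from -0.08 to 0.15 in wild type cells. The signals of the β2 and β1 chains thus changed unequally, which does not say which of them was constant. Lamc1, the γ1 chain that pairs with both, had a log2 difference of -0.20 (95% interval -0.40 to 0.01). Lama1, Lama3, Lama5, Lamb3 and Lamc3 had log2 differences between -0.06 and 0.11, with means between 3.61 and 5.11 in both groups.

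Nidogens and proteoglycans of the basement membrane did not pass either. Nid1 (nidogen-1), whose probe set was the brightest of the group, had means of 9.60 in wild type and 9.48 in 8KR cells and a log2 difference of -0.12 (95% interval -0.32 to 0.08). Its paralog Nid2 had a log2 difference of -0.28 (unadjusted p of 0.0491, adjusted p = 0.251 from limma). Hspg2, which encodes perlecan, had a log2 difference of -0.19 (95% interval -0.42 to 0.04). Agrn, which encodes agrin, had means of 5.41 in wild type and 5.83 in 8KR cells, but its 8KR arrays spread widely (SD 0.34, n = 3) and the interval of the difference ran from -0.02 to 0.88.

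**Figure D2:**
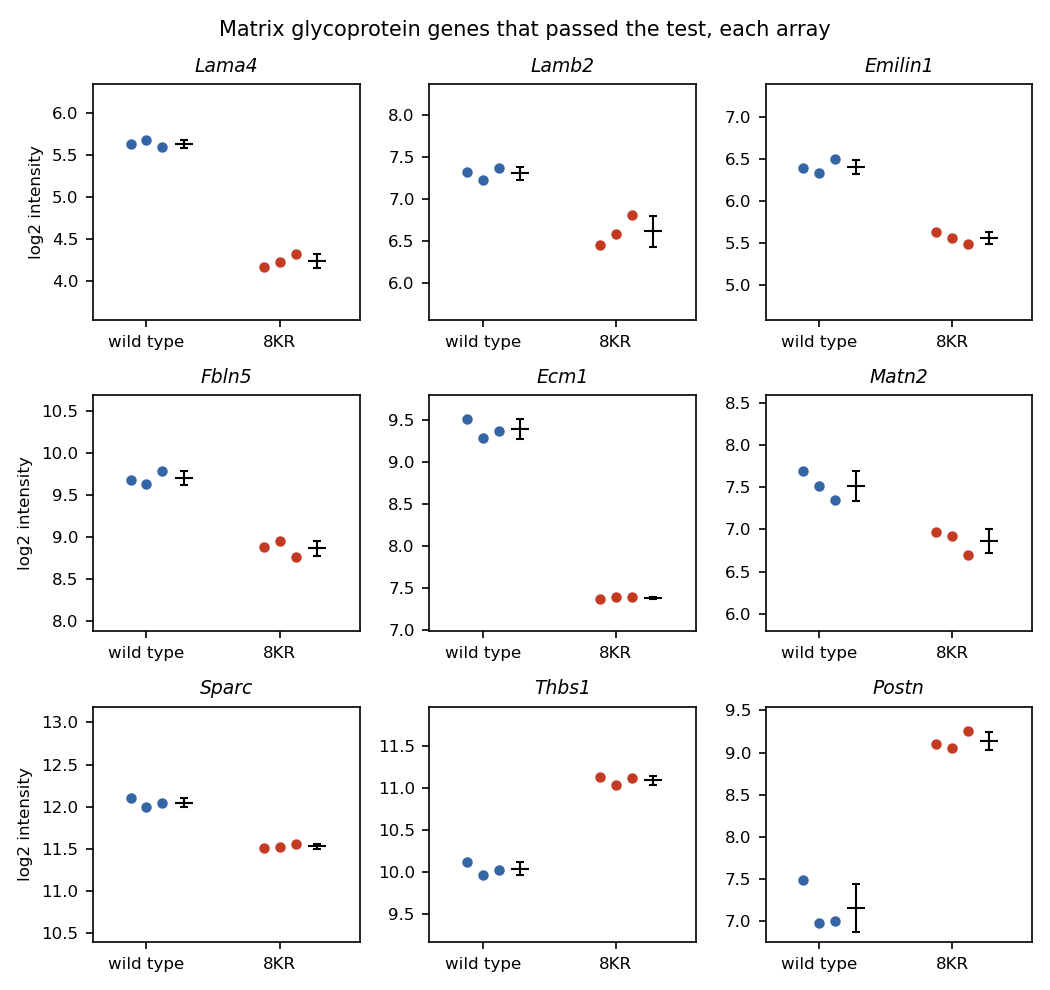
Log2 intensity (vertical axis, with the same span in each panel) of the 9 called genes in wild type (blue, n = 3) and 8KR cells (red, n = 3), where each point is an array and black marks beside them give mean and SD. The groups do not overlap in any panel, and Postn and Thbs1 alone of the 9 lie higher in 8KR cells.

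Among the elastic fibre genes, 2 of 11 fell, none rose and 9 did not pass. Emilin1 encodes a glycoprotein found between the elastin core and its microfibrils. Its log2 intensity was 6.39, 6.33 and 6.50 in wild type and 5.63, 5.56 and 5.50 in 8KR cells. All 8KR arrays lay below all wild type arrays, and the mean fell from 6.41 ± 0.08 to 5.56 ± 0.07 (SD, n = 3 each), or 1.79-fold (log2 difference -0.84, SE 0.08, limma adjusted p = 0.00721). Fbln5 encodes fibulin-5, which binds elastin and lysyl oxidase-like enzymes and is needed for elastic fibre assembly. It gave 9.67, 9.63 and 9.79 in wild type and 8.88, 8.95 and 8.76 in 8KR cells. The groups were again apart, and the mean fell from 9.69 ± 0.08 to 8.86 ± 0.09 (SD, n = 3 each), or 1.78-fold (log2 difference -0.83, SE 0.09, limma adjusted p = 0.00886).

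The other tested emilin and fibulin genes of the group did not pass, and Efemp2 was not analysed. Emilin2 had means of 8.48 in wild type and 8.01 in 8KR cells, with all 8KR arrays lower (log2 difference -0.47, 95% interval -0.74 to -0.20, adjusted p = 0.0754 from limma). Fbln2 (fibulin-2) had means of 10.00 and 10.38, with all 8KR arrays higher (log2 difference 0.37, 95% interval 0.18 to 0.57, adjusted p = 0.0621 from limma). Relative to the wild type mean, Fbln5 minus Fbln2 ranged from -1.36 to -1.10 in 8KR cells and from -0.12 to 0.15 in wild type cells, so the signals of these fibulins changed unequally. Efemp1, which encodes fibulin-3 and had the brightest probe set of the group, had means of 11.24 and 11.46 (log2 difference 0.22, 95% interval 0.03 to 0.40, adjusted p = 0.189 from limma). Among the alternatives, Fbln2 passed in 4, Emilin2 in 3 and Efemp1 in 1. Fbln1, the gene of fibulin-1, was dim, with means of 3.79 and 3.82.

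None of the tested components of the fibre core and its microfibrils passed. Eln, the gene of elastin, had means of 4.82 in wild type and 4.90 in 8KR cells (log2 difference 0.08, 95% interval -0.15 to 0.31). Fbn2, the gene of fibrillin-2, had means of 3.84 and 3.85. Mfap5, a microfibril-associated glycoprotein, had means of 8.74 and 9.10, with all 8KR arrays higher (log2 difference 0.36, 95% interval 0.12 to 0.59, adjusted p = 0.107 from limma). It passed in 2 of the alternatives, with the filter at 5.0 (adjusted p = 0.0478 from limma) and with the intensity trend (adjusted p = 0.0420 from limma). Its relative Mfap2 had a log2 difference of 0.11, and Mfap4 of 0.12.

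Among the matricellular and adhesive genes, 3 of 15 fell, 2 rose and 10 did not pass, so that both directions occurred in 1 group. Ecm1 encodes extracellular matrix protein 1, a secreted glycoprotein that binds perlecan and other matrix proteins. Its log2 intensity was 9.51, 9.28 and 9.37 in wild type and 7.37, 7.39 and 7.39 in 8KR cells. The 8KR arrays lay close together and far below the wild type arrays, and the mean fell from 9.39 ± 0.12 to 7.39 ± 0.01 (SD, n = 3 each), or 4.01-fold (log2 difference -2.00, SE 0.09, limma adjusted p = 5.95e-04). Sparc encodes SPARC, or osteonectin, a collagen-binding protein, and had the brightest probe set of the group. It gave 12.10, 11.995 and 12.05 in wild type and 11.51, 11.52 and 11.56 in 8KR cells. The difference was small but regular, and the mean fell from 12.05 ± 0.05 to 11.53 ± 0.03 (SD, n = 3 each; log2 difference -0.52, SE 0.07, limma adjusted p = 0.0188). Matn2 encodes matrilin-2, an adaptor between matrix fibrils, with 7.69, 7.51 and 7.34 in wild type and 6.97, 6.92 and 6.70 in 8KR cells. Its mean fell from 7.52 ± 0.18 to 6.86 ± 0.14 (SD, n = 3 each; log2 difference -0.65, SE 0.12, limma adjusted p = 0.0460). The calls of Sparc and Matn2 were lost when any of the 6 arrays was left out, with adjusted p-values from limma of 0.0600 to 0.0767 for Sparc and 0.0736 to 0.123 for Matn2 and differences of -0.54 to -0.49 and -0.74 to -0.56.

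Periostin and thrombospondin-1 went the other way. Postn encodes periostin, a matricellular protein that binds collagen and integrins and is made in remodelling connective tissue. Its log2 intensity was 7.48, 6.98 and 7.01 in wild type and 9.10, 9.05 and 9.26 in 8KR cells. Wild type replicate 1 was the highest of its group and still lay below every 8KR array, and the mean rose from 7.16 ± 0.28 to 9.14 ± 0.10 (SD, n = 3 each), or 3.95-fold (log2 difference 1.98, SE 0.16, limma adjusted p = 0.00372). Tgfbi, its paralog, was not called, with means of 4.35 and 4.49, and relative to the wild type mean Postn minus Tgfbi lay between 1.67 and 2.04 on the 8KR arrays. Thbs1 encodes thrombospondin-1, an inhibitor of vessel growth and an activator of latent TGF-β. It gave 10.12, 9.97 and 10.03 in wild type and 11.13, 11.03 and 11.11 in 8KR cells, with no overlap. The mean rose from 10.04 ± 0.08 to 11.09 ± 0.05 (SD, n = 3 each), or 2.07-fold (log2 difference 1.05, SE 0.08, limma adjusted p = 0.00338).

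The other thrombospondins did not pass. Thbs2, the closest relative of Thbs1, had means of 9.31 in wild type and 9.30 in 8KR cells (log2 difference -0.01, 95% interval -0.19 to 0.17). Relative to the wild type mean, Thbs1 minus Thbs2 lay between 1.02 and 1.14 in 8KR cells and between -0.10 and 0.08 in wild type cells. Thbs3 and Thbs4 had log2 differences of 0.26 and 0.25, and Comp, the cartilage member of the family, of -0.16, and none of these 3 passed. Thbs4 was dim, with means of 3.49 and 3.73, and had all 8KR arrays higher (unadjusted p of 0.0271, adjusted p = 0.185 from limma). Among the tenascins, Tnc had a log2 difference of -0.27 (95% interval -0.58 to 0.05). Tnxb had -0.59, with all 8KR arrays lower but a wide interval of -1.04 to -0.13 (adjusted p = 0.158 from limma). Fn1, the gene of fibronectin, had means of 11.59 and 11.69 (log2 difference 0.09, 95% interval -0.08 to 0.27), Vcan, the gene of versican, had a log2 difference of 0.20 (95% interval -0.02 to 0.41), and Vtn, the gene of vitronectin, was dim at 3.65 and 3.79. Of the 30 genes that did not pass, the 95% interval lay within 1 log2 unit on either side of 0 for 29 and within 0.5 for 20.

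**Figure D3:**
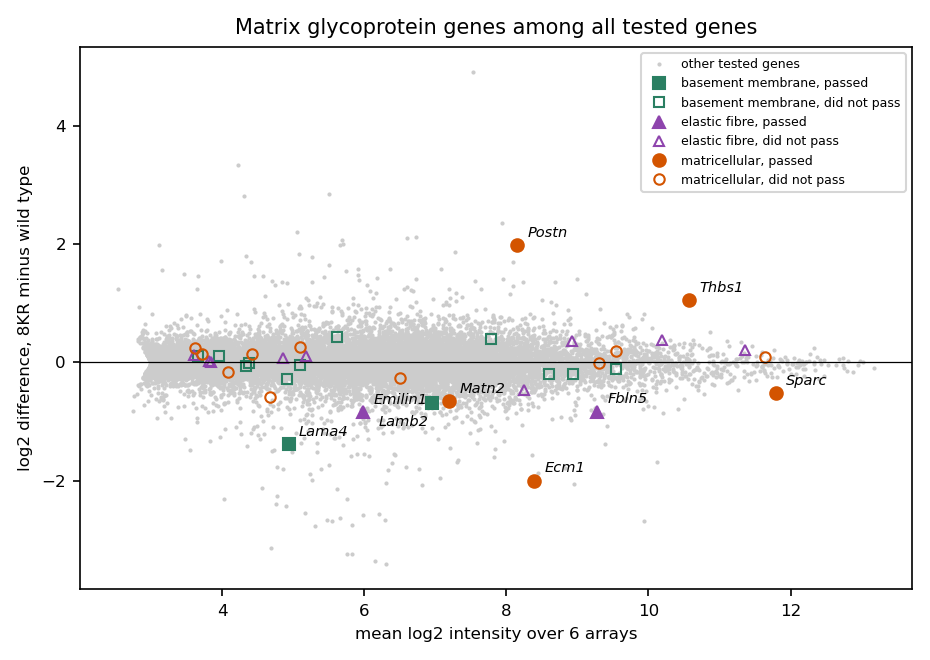
Log2 difference between 8KR and wild type cells (vertical axis) against the mean log2 intensity over the 6 arrays (horizontal axis) for all 17145 tested genes (grey) and the 39 genes described here (colours by group, filled where they passed). The called genes lie from a mean near 4.9 (Lama4) to 11.8 (Sparc).

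The differences of the nearest tested genes, 5 on each side in the RefSeq gene order, were set beside those of the called genes. For Lama4, Fbln5, Postn, Sparc and Ecm1 none of the 10 neighbours was called, and the neighbours' median log2 differences were 0.02, 0.08, 0.23, -0.00441 and -0.17. For Thbs1 only Gpr176 was called among the neighbours, higher like Thbs1. Of the 10 neighbours, 4 shared the direction of Lama4, 2 that of Fbln5, 4 that of Thbs1 and 5 that of Sparc. For Matn2, 8 of the 10 neighbours had a difference below 0, with a median of -0.16, and Rida was called lower, at -1.04 against -0.65 for Matn2. For Ecm1 8 of the 10 were below 0 as well, and for Postn 7 of the 10 were above 0. For Lamb2, 9 of the 10 neighbours had a difference below 0 as well, with a median of -0.29, and Qars was called lower. For Emilin1, 9 of 10 also had a difference below 0, with a median of -0.19, and Mapre3, Ost4 and Cgref1 were called lower, with Cgref1 at -1.03. Over all 17145 tested genes, 8269 differences were below 0 and 8876 above it, and 5.39% of the genes were called. The part of the surrounding genes in the falls of Lamb2, Emilin1, Matn2 and Ecm1 and in the rise of Postn was not tested.

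**Figure D4:**
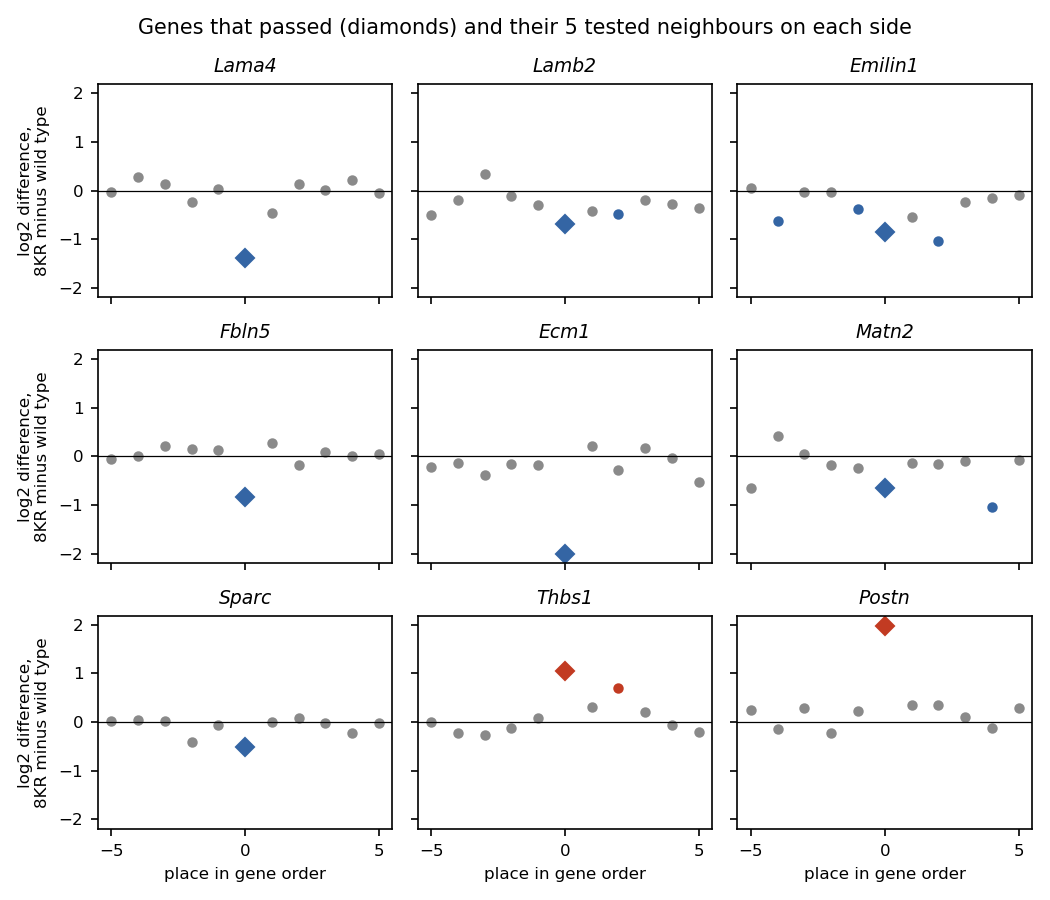
Log2 difference between 8KR and wild type cells (vertical axis) of each called gene (diamond at place 0) and of the 5 nearest tested genes on each side in gene order (circles), blue where lower, red where higher and grey where not called. The neighbours are mostly below 0 for Lamb2 and Emilin1 (9 of 10 each) and for Matn2 and Ecm1 (8 of 10 each). They are mostly above 0 for Postn (7 of 10). Fewer share the direction of Lama4 (4 of 10), Fbln5 (2), Thbs1 (4) and Sparc (5). None of the 10 neighbours is called for Lama4, Fbln5, Postn, Sparc and Ecm1.

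Other genes of the same matrix systems, listed by their role as receptors, cross-linking enzymes or relatives, were read from the same fit. Of 57 tested partner genes, 4 rose, 7 fell and 46 did not pass, a called share of 19.3% beside the 5.39% of all tested genes. The partners, too, were listed with earlier results of these data known, so this share is a description. Of 16 basement membrane partners 2 rose, namely Itga3, the α chain of a laminin-binding integrin, from 6.57 ± 0.16 to 7.80 ± 0.06 (SD, n = 3 each; log2 difference 1.24), and Smoc2, a SPARC-related basement membrane protein (log2 difference 0.85). The other laminin receptor genes did not pass, with Itga6 at -0.47, Dag1, which encodes dystroglycan, at -0.35, Itga7 at 0.49 and Itgb1 at 0.11. Col4a1 and Col4a2, the main collagen IV chains, had log2 differences of 0.33 and 0.05 and did not pass.

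Of 17 elastic fibre partners, 1 rose and 3 fell. Loxl1, a lysyl oxidase that cross-links elastin and is a partner of fibulin-5, fell from 9.40 ± 0.05 to 8.43 ± 0.07 (SD, n = 3 each; log2 difference -0.97). All 10 of its neighbours in gene order were below 0 too, and 3 of them, Pml, Insyn1 and Nptn, were called lower. Of all tested genes, 3.06% were called lower. Lox, the main lysyl oxidase, had a log2 difference of -0.29 and did not pass. Of the 4 genes of latent TGF-β binding proteins, which sit on microfibrils, Ltbp2 (log2 difference -1.58) and Ltbp3 (-0.62) fell and Ltbp1 (0.71) rose. Ltbp4 had a log2 difference of 0.53, with all 8KR arrays higher, and did not pass (adjusted p = 0.139 from limma).

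Of 24 matricellular partners, 1 rose and 4 fell. Sparcl1, a relative of SPARC, fell from 5.74 ± 0.20 to 4.22 ± 0.14 (SD, n = 3 each; log2 difference -1.52). Among the CCN genes, Ccn5 fell by 1.64 and Ccn2 fell by 0.48 on the log2 scale, whereas Ccn1 (0.14), Ccn3 (0.32) and Ccn4 (-0.04) did not pass. Cd47, a thrombospondin receptor, fell by 0.72 at the brighter and fell by 0.91 at the dimmer of its 2 probe sets. Itga8, a chain of an integrin that binds fibronectin and other matrix ligands, rose by 0.93. With any single array left out, 5 or 6 partner genes were called in place of 11.

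**Figure D5:**
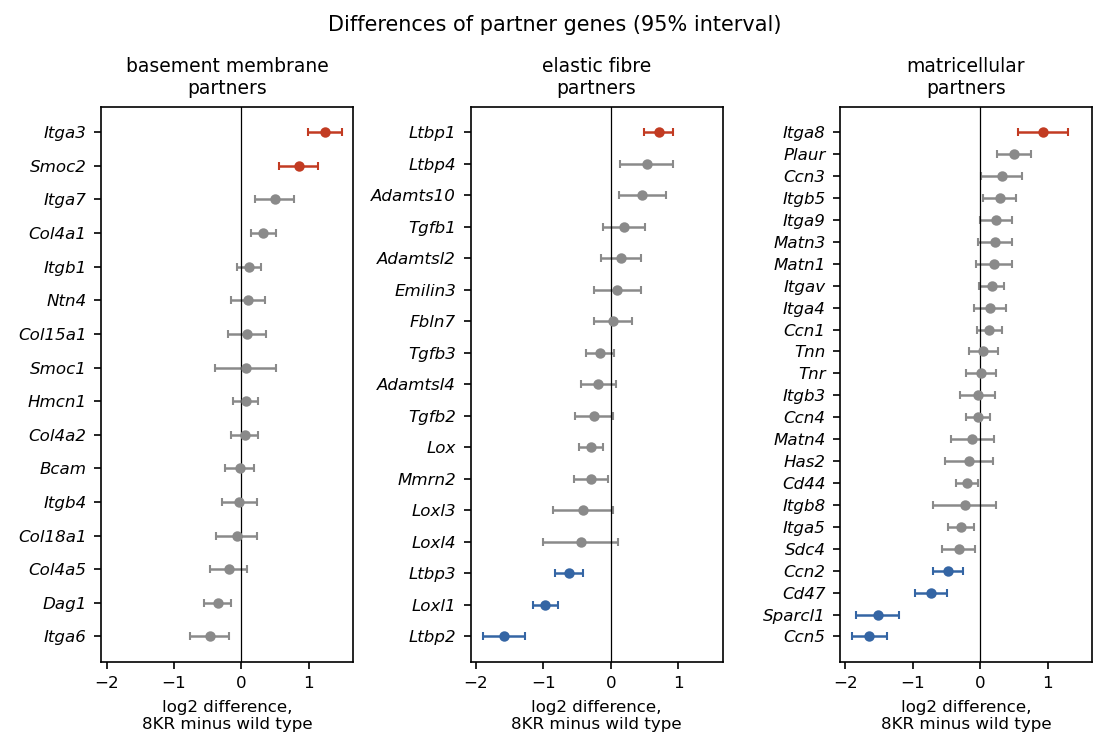
Log2 difference between 8KR and wild type cells (horizontal axis, 8KR minus wild type) of the 57 tested partner genes in 3 groups, with the 95% interval from limma as a bar. Blue points fell, red points rose and grey points did not pass, with Ccn5 (-1.64) and Ltbp2 (-1.58) the lowest and Itga3 (1.24) the highest.

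The labelled cell type was checked against markers. Of 9 fibroblast markers 8 were tested, and Fap lay below the filter. The log2 difference was below 0 for 7 of the 8, and in 6 all 8KR arrays lay below all wild type arrays. Vim (0.03) and Thy1 (-0.02) were the exceptions to the latter. Among all 17145 tested genes, 8269 had a difference below 0, and in 2517 all 8KR arrays lay below all wild type arrays. Pdgfra (log2 difference -0.75) and Col3a1 (-0.52) fell. The summed linear signal of the 8 markers ran from 13040 to 13300 in wild type and from 12030 to 12250 in 8KR cells. The brightest marker, S100a4 (log2 difference -0.20, not called), weighs most in that sum, and the dimmer Pdgfra and Col3a1 weigh little. None of 7 epithelial, 4 endothelial, 3 macrophage and 6 muscle markers tested was called, and their summed signals ran from 158.1 to 176.8, 58.94 to 63.07, 51.89 to 72.55 and 2885 to 2968 in wild type cells. In 8KR cells the same sums ran from 157.2 to 173.3, 57.29 to 66.64, 53.15 to 58.77 and 3421 to 3436. The muscle sum was mostly Acta2 (log2 difference 0.29, all 8KR arrays higher, not called). Des (-0.74) and Tagln (-0.27) went the other way, with all 8KR arrays below all wild type arrays, and were not called. Myod1, Myog and Myh11 overlapped. Kdr, Emcn, Ptprc and Adgre1 lay below the filter. Of 4 adipocyte markers tested, only Lpl was called, and it fell (log2 difference -0.80). Fabp4 (-0.68) had all 8KR arrays lower and was not called, whereas Plin1 (-0.03) and Cebpa (0.05) overlapped. The sum of the 4, of which Lpl was the brightest, ran from 175.9 to 192.3 in wild type and from 122.1 to 135.5 in 8KR cells. Adipoq lay below the filter. The part of these shifts in the matrix results was not tested, and in bulk RNA fewer cells of a kind and less RNA per cell cannot be told apart.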

How the data were processed

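RNA of 6 samples was hybridized to Affymetrix Mouse Gene 1.0 ST arrays. The deposited values are log2 intensities of 35557 probe sets per array, already normalized by the authors. According to the processing notes of the submitters, the software was Affymetrix Power Tools 1.12.0. Neither the method of normalization nor a genome build is given in the sources used here. Arrays give no read depth, and their number limits the precision. Median log2 intensities were 4.49 to 4.54, and correlations between arrays of a group were 0.982 to 0.984, so none was a copy.

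Following the methods, probe sets with no group mean above 3.0 were removed, and the other 28543 were fitted with limma 3.58.1 in R 4.3.3 (lmFit, eBayes, no covariates). The fit was checked on simulated data. Symbols came from the platform annotation, with 21789 probe sets of 1 symbol. A gene was read at its brightest probe set. The labels do not say whether replicate numbers pair the arrays, and the main fit did not pair them. The rule for naming genes took every called member, uncalled members with an unadjusted p under 0.05, the brightest member of each group, members left out and called partners, and the other members and uncalled partners were added after their values were seen. The pairs of related genes set against each other were also chosen after their values were seen and have no test. The members and lists were chosen with earlier results of these data known. Figures used matplotlib 3.10.9. Alternatives covered the filter, normalization, variance model, replicate block, features tested and each array left out.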

Additional observations from a re-analysis of the deposited data

How the results depend on the processing

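The 9 calls among the matrix glycoprotein genes became 14 when limma's variance followed intensity and 2, Ecm1 and Lama4, with the replicate number as a block. Without moderated variances they were 7, and with an array left out 6 to 7. Ecm1 and Lama4 passed in each of the 15 alternatives run, and Emilin1, Fbln5, Postn and Thbs1 in 14, the exception being the replicate block, with adjusted p-values from limma of 0.0750, 0.0835, 0.0516 and 0.0516. Lamb2 and Sparc passed in 8 and Matn2 in 6. No direction was reversed among the 17 genes with an unadjusted p under 0.05, but this was largely fixed in advance. The alternatives of filter, variance model, replicate block and features tested leave each log2 difference as it is. Where the arrays of the groups do not overlap, leaving out an array cannot reverse the sign. The median log2 difference of the list was -0.084 with the filter at 5.0, and -0.01 to 0.04 with an array left out. Called probe sets, 1245 in all, were 2295 with the filter at 5.0, 2200 with the intensity trend, 827 with an ordinary test, 77 with the block and 368 to 406 with an array left out. The 11 partner calls became 17 with the filter at 5.0, 1 with the block and 5 to 6 with an array left out.

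Same-numbered arrays did not deviate together over the tested probe sets (correlations -0.01, 0.01 and -0.00048). The labels do not say whether same-numbered arrays were handled together, and these correlations cannot decide it. The probe set with the lowest mean was not run as an alternative, because each gene of the list has 1. Arrays carry no read depth, and for genes near the filter a fall can be hidden in background signal.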
